A study of Mus musculus with 8 samples.

Results

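Zfp36, Zfp36l1, Zfp36l2, Btg1, Btg2 and Zc3h12a encode regulators of mRNA decay, and their transcripts were followed in sorted mouse LTi (lymphoid tissue inducer) cells, a class of innate lymphocyte that organizes developing lymph nodes and Peyer's patches. The genes were chosen by name from the 27179 in the table. Of the 7 names looked for, 6 were found. Regnase1 has no row under that name, since Regnase-1 is the protein of Zc3h12a. All 6 genes stood among the 10541 with at least 1 RPKM (reads scaled by gene length and library depth) in at least 2 libraries.

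Cells were sorted from the small intestine lamina propria (LP) and from Peyer's patches (PP), the lymphoid follicles of the gut wall, of C57BL/6 mice, and each tissue gave 2 libraries per genotype. The groups were LP of Tcf7fl/fl-RorcCre mice (labelled KO), LP of Tcf7+/+ mice (WT), PP labelled KO and PP WT. The Cre recombinase of this line is active in LTi cells and in developing T cells, and neither Cre in the WT mice nor any age is stated in the labels. The gate was lineage-negative, positive for CD127 and CCR6, and negative for KLRG1, NK1.1 and NKp46. RNA was sequenced after Smart-seq2, which amplifies cDNA from few cells by PCR. The labels do not say whether the 2 libraries of a group came from separate animals, so p-values measure only the spread between these libraries.

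Proteins of the ZFP36 family bind AU-rich elements of short-lived mRNAs through zinc fingers and recruit the CCR4-NOT complex, which removes the poly(A) tail. BTG and TOB proteins bind the deadenylases of the same complex and slow cell division. Regnase-1, from Zc3h12a, is an endonuclease that cuts stem-loops in mRNAs of inflammatory mediators. In lymphocytes these factors are known to restrain cytokine output and to keep resting cells quiescent, and several of them are themselves switched on within minutes of stimulation.

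Tcf7, the targeted gene, was not lower in the libraries labelled KO. It stood at 237 and 215 RPKM in LP labelled KO, 229 and 246 in LP WT, 355 and 337 in PP labelled KO, and 243 and 85.4 in PP WT. Since RPKM is summed over all exons, loss of some of them need not show, and genotype rests on the labels. Il7r, the gene of CD127 (206 to 385 RPKM in LP, 252 to 454 in PP), and Ccr6 (89.3 to 325 and 320 to 597) were present in every library, and Ncr1, the gene of NKp46, stayed under 1 RPKM. Klrb1c, the gene of NK1.1, was under 1 RPKM in 6 libraries but stood at 8.42 in PP labelled KO replicate 2 and 32.8 in PP WT replicate 1. Klrg1, the gene of KLRG1, missed the filter of 1 RPKM in 2 libraries but was not under 1 in every library. Immunoglobulin genes, products of B lineage cells, took 10.4% to 17.3% of summed RPKM in LP and 2.83% to 6.43% in PP. Mitochondrially encoded genes took 13.4% and 13.6% in PP labelled KO, against 3.06% to 5.06% in the other libraries. Correlations between the replicates of a group were 0.577 to 0.745 over the genes kept. In bulk RNA, fewer cells that express a gene and less of its RNA per cell cannot be told apart.

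The promoters are shown because Btg2, Zc3h12a and Zfp36l1 were higher in every LP library than in every PP library, while Btg1, the closest relative of Btg2, was not. Each stretch is the 250 bases before the gene start in RefSeq (GRCm38.p6), read on the strand of the gene. Btg2 is at chr1:134079156-134079405 (minus strand), Btg1 at chr10:96616751-96617000 (plus strand), Zfp36l1 at chr12:80113014-80113263 (minus strand) and Zc3h12a at chr4:125127882-125128131 (minus strand). Capitals mark matches to the motifs searched.
Btg2: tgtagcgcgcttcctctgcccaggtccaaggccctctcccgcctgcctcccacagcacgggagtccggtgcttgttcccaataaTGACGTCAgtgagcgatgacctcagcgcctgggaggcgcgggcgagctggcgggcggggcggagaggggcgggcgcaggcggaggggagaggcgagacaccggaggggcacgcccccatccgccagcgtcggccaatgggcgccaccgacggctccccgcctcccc
Btg1: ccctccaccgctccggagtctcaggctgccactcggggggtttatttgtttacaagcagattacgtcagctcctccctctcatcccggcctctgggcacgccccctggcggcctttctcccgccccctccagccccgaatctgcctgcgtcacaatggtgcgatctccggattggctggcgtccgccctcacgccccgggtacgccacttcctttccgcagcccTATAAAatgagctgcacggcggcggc
Zfp36l1: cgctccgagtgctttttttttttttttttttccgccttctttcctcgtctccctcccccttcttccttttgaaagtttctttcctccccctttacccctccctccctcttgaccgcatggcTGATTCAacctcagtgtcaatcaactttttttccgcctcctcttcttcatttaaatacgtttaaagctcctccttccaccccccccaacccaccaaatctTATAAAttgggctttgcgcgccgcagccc
Zc3h12a: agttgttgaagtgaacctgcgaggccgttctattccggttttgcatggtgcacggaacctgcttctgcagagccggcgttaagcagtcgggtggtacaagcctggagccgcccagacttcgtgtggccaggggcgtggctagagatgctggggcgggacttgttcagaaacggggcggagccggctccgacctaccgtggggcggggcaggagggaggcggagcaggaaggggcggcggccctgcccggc

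Both strands were searched for the cAMP response element (TGACGTCA), AP-1 (TGANTCA), TCF/LEF (TCAAAG), the TATA box (TATAAA), NF-kB and the CArG box of serum response factor. The Btg2 stretch held the cAMP response element at -166 to -159 from the start, a motif found in 1.55% of 32851 promoter windows of the same length. The Zfp36l1 stretch held an AP-1 match (TGATTCA), a motif of 6.75% of windows, and a TATA match, which 12.37% hold. Btg1 had the TATA match, and Zc3h12a matched none of the motifs. Zfp36, whose stretch is not printed, held a CArG match, found in 1.47% of windows. TCF/LEF letters (13.83% of windows) and NF-kB letters (3.9%) were in none of these 5 stretches. Zfp36l2 was not looked at in this way. A match is a description of letters and was not tested as a binding site.

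Btg2 (Entrez Gene 12227, chromosome 1, 134074865 to 134079155 on GRCm38.p6), an antiproliferative gene induced by growth factors, stress and p53, was about 10 times higher in LP than in PP. It stood at 575 and 527 RPKM in LP labelled KO and 554 and 628 RPKM in LP WT, against 74.8 and 54.6 RPKM in PP labelled KO and 40.0 and 62.0 RPKM in PP WT. The lowest LP library lay far above the highest PP library, and the genotypes overlapped in both tissues. With tissue and genotype as terms, the log2 fold change of LP over PP was 3.31 ± 0.29 (SE, 4 against 4 libraries, limma adjusted p = 1.95e-04, over all genes kept), with Btg2 higher in 4 of 4 LP libraries. An exact two-sided permutation test over the 4 LP and 4 PP libraries gave p = 0.0286, the smallest it can give. Any gene without overlap between the tissues gets this value, so it only restates the separation. Zfp36l1 and Zc3h12a got it too, and 6.54% of all genes kept were higher in LP without overlap. Btg2 was 1 of 6 members to pass, beside 4.33% of all genes kept, or 2.3% counting those higher in LP, and it ranked 17 by p.

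Within each genotype Btg2 passed too, 1 of 6 members each time. In labelled KO libraries the LP value exceeded the PP value by 3.09 ± 0.35 on the log2 scale (limma adjusted p = 0.0123), where 2% of genes passed and 0.93% as higher, and in WT by 3.54 ± 0.35 (limma adjusted p = 0.00744), where 2.13% passed and 1.34% as higher. The average difference passed in all 16 alternatives, with adjusted p of 1.15e-04 to 0.0166. The calls within a genotype did not hold in every fit with 1 library left out. The WT call was lost without LP WT replicate 1 or 2. The labelled KO call was lost without any 1 of the 4 labelled KO libraries, or without either LP WT library, which is outside that comparison. Log2 fold changes in the fits that lost a call were 2.86 to 3.63. Both calls were also lost when only the groups compared were fitted (limma adjusted p = 0.172 in labelled KO and 0.147 in WT). In those fits 0 of all genes passed. The labelled KO call was lost without a trend in eBayes too (limma adjusted p = 0.0854).

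**Figure D1:**
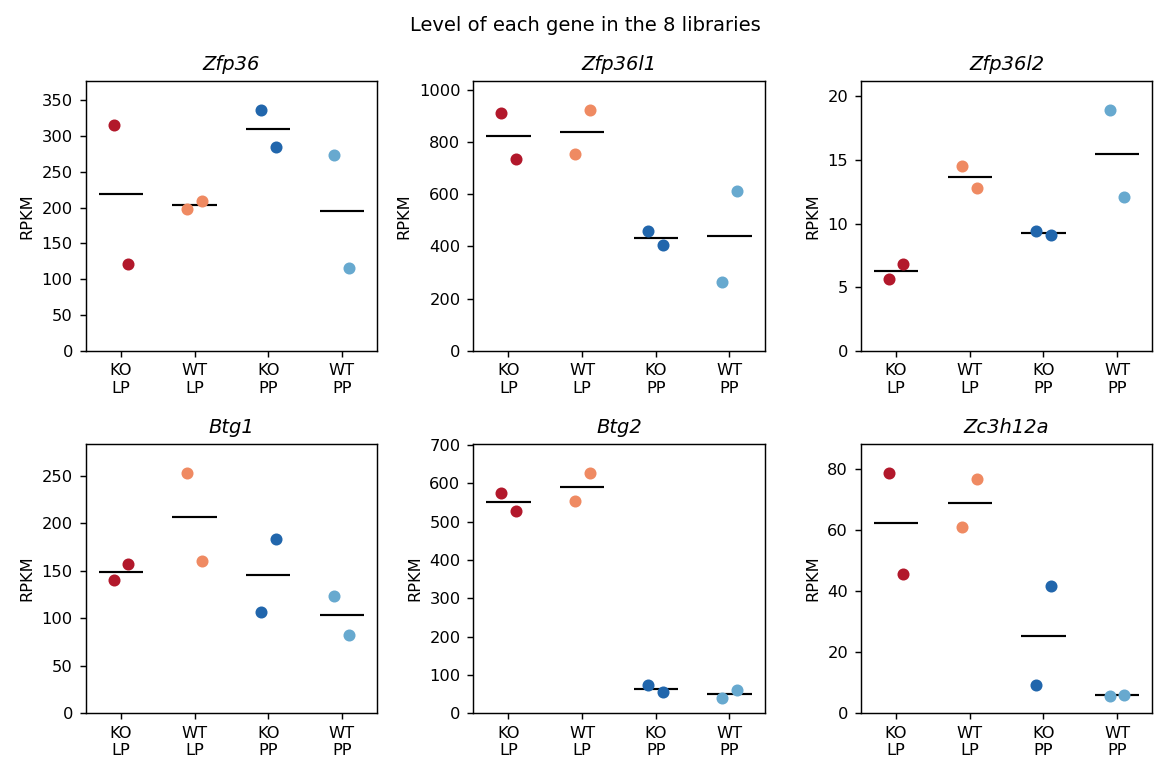
RPKM of each gene (vertical axis, from 0, with its own range) in the 8 libraries, by group on the horizontal axis; points are libraries and lines are group means of 2. Btg2 is at 527 to 628 RPKM in LP and at 40.0 to 74.8 in PP, while Zfp36 and Btg1 overlap between tissues.

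Btg1 (Entrez Gene 12226, chromosome 10, 96617001 to 96622813), its paralogue and a factor of lymphocyte quiescence, overlapped between the tissues. It stood at 140 and 158 RPKM in LP labelled KO, 253 and 161 in LP WT, 107 and 184 in PP labelled KO, and 123 and 82.9 in PP WT. The average tissue difference was 0.54 ± 0.36 (95% interval -0.25 to 1.32, limma adjusted p = 0.441). Its near-identical copies on chromosome X, Btg1b and Btg1c, were listed at no more than 0.0946 RPKM, and the handling of reads that match several copies is unknown here.

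The order of the paralogues differed by tissue in all 8 libraries. Btg2 stood at 4.09 and 3.35 times Btg1 in LP labelled KO and 2.19 and 3.91 times in LP WT. In PP it stood at 0.699 and 0.297 times Btg1 in labelled KO and 0.324 and 0.748 times in WT. Btg2 was thus the more abundant in each LP library and Btg1 in each PP library, on a scale that allows for gene length.

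**Figure D2:**
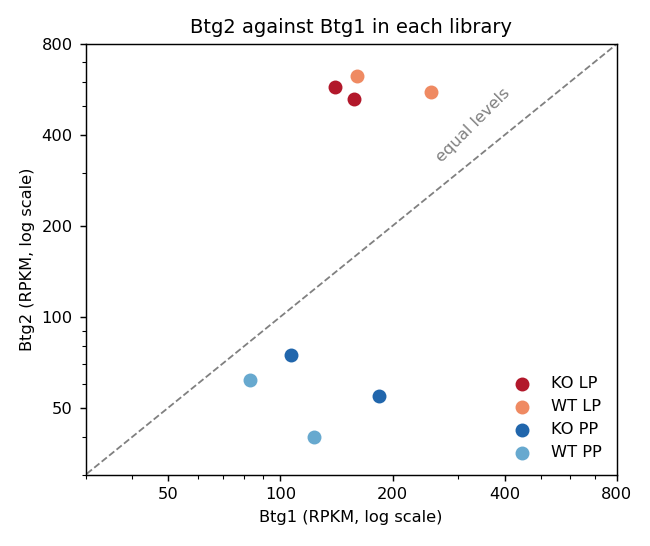
Btg2 against Btg1 in RPKM on log axes, 1 point per library; the dashed line marks equal levels. The 4 LP libraries lie above the line, at ratios of 2.19 to 4.09, and the 4 PP libraries below it, at 0.297 to 0.748.

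Zc3h12a (Entrez Gene 230738, chromosome 4, 125118414 to 125127881) was the second gene with a wide tissue difference, but it did not pass. It stood at 78.8 and 45.8 RPKM in LP labelled KO and 61.0 and 76.7 in LP WT. In PP it stood at 9.26 and 41.6 RPKM in labelled KO and at 5.71 and 6.11 in WT. All LP libraries were above all PP libraries, but PP labelled KO replicate 2 came close to the lowest of them. The average tissue difference was 2.44 ± 0.67 (95% interval 0.95 to 3.93, limma adjusted p = 0.072). Without that library it was 3.03 and passed (limma adjusted p = 0.0353). The difference was 1.55 ± 0.83 in labelled KO libraries (limma adjusted p = 0.491) and 3.33 ± 0.83 in WT libraries (limma adjusted p = 0.103).

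Zfp703 and Muc1, an epithelial mucin gene, had the patterns most like Zc3h12a over the 8 libraries (Pearson r = 0.99 and 0.982). In PP labelled KO replicate 2 they stood at 8.48 and 10 RPKM, against at most 0.125 and 0.243 in the other 3 PP libraries. They were picked for this likeness, so their higher level in that library follows from the choice. Summed over the 14 epithelial markers, LP labelled KO had 217 and 475 RPKM, LP WT 191 and 398, PP labelled KO 514 and 696 and PP WT 127 and 190. Both PP labelled KO sums exceeded every LP sum, while Zc3h12a stood at 9.26 RPKM in PP labelled KO replicate 1. The part of epithelial RNA in the Zc3h12a values was not tested.

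Zfp36l1 (Entrez Gene 12192, chromosome 12, 80107760 to 80113013), which in mice is needed for normal lymphocyte development together with Zfp36l2, was the most abundant of the 6 in LP. It stood at 914 and 735 RPKM in LP labelled KO and 755 and 924 in LP WT, against 459 and 406 in PP labelled KO and 265 and 612 in PP WT. No LP library overlapped the PP libraries, as was true of 6.54% of all genes kept in the direction of higher LP, and of 3 of the 6 members. The average tissue difference was 0.99 ± 0.26 (95% interval 0.41 to 1.56, limma adjusted p = 0.0616). It passed without PP WT replicate 2 (1.21, limma adjusted p = 0.0242) and when immunoglobulin and mitochondrial genes were left out of the library total (1.1, limma adjusted p = 0.0437).

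Zfp36 (Entrez Gene 22695, chromosome 7, 28376784 to 28379228), which encodes tristetraprolin, the best known destabilizer of Tnf mRNA, showed no tissue difference beyond its spread. It stood at 316 and 122 RPKM in LP labelled KO, 198 and 209 in LP WT, 337 and 284 in PP labelled KO, and 273 and 116 in PP WT. Replicates within a group thus differed as much as any groups did. The average tissue difference was -0.23 ± 0.39 (95% interval -1.11 to 0.64, limma adjusted p = 0.821), and turned to 0.13 without LP labelled KO replicate 2.

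Zfp36l2 (Entrez Gene 12193, chromosome 17, 84183924 to 84187947) was the least abundant in each LP library, while Zc3h12a was lower in 3 of the 4 PP libraries. It stood at 5.67 and 6.82 RPKM in LP labelled KO and 14.5 and 12.8 in LP WT, and at 9.42 and 9.13 in PP labelled KO and 18.9 and 12.1 in PP WT. The tissue difference was -0.32 ± 0.72 (95% interval -1.92 to 1.27, limma adjusted p = 0.87). Zfp36l1 exceeded its relative by 108 to 161 times in LP labelled KO, 52 to 72 times in LP WT, 44.5 to 48.7 times in PP labelled KO and 14 to 50.8 times in PP WT.

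By group means, both LP groups stood above both PP groups for Zfp36l1, Btg2 and Zc3h12a. In LP labelled KO these means were 824, 551 and 62.3 RPKM, and in LP WT 840, 591 and 68.9, differing by less than their spread. Btg1 averaged 149 ± 12.2 RPKM in LP labelled KO, 207 ± 65.5 in LP WT, 145 ± 54.2 in PP labelled KO and 103 ± 28.6 in PP WT (SD, n = 2 each). LP WT was thus highest and PP WT lowest, and neighbours in that order overlapped or lay within these SDs. For Zfp36 PP labelled KO came first at 311 RPKM, and the other 3 groups lay between 195 and 219. For Zfp36l2 both labelled KO groups came below both WT groups (6.25 in LP and 9.28 in PP, against 13.7 in LP and 15.5 in PP). The 6 genes together summed to 1594 to 2030 RPKM in LP libraries and to 726 to 997 in PP libraries.

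Genotype was compared within each tissue to ask whether decay regulators differ with Tcf7 genotype, as labelled. None of the 6 passed in LP or in PP, by limma over all genes kept, and none had an unadjusted p under 0.05 in either. Of all genes, 0.0285% passed in LP and 0.36% in PP, and 5.27% and 11.4% had an unadjusted p under 0.05. Btg2 differed by -0.10 in LP (95% interval -0.93 to 0.73) and by 0.35 in PP (-0.48 to 1.19), and the sign of each turned after median-of-ratios rescaling. The intervals leave room for a change in either direction. Zfp36l1 had -0.03 in LP (-0.94 to 0.89) and 0.10 in PP (-0.81 to 1.01), and Btg1 -0.44 in LP (-1.47 to 0.60) and 0.47 in PP (-0.57 to 1.5).

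Zfp36l2 was lower in labelled KO than in WT without overlap in both tissues, as were 3.42% of all genes kept. Its log2 fold change was -1.02 ± 0.85 in LP (95% interval -3.02 to 0.98, limma adjusted p = 1) and -0.65 ± 0.85 in PP (-2.65 to 1.35, limma adjusted p = 0.817). The average, -0.84 ± 0.72, did not pass either (limma adjusted p = 0.853, where 0.00949% of all genes passed), and it lay between -0.995 and -0.617 in all 16 alternatives. Zfp36 and Zc3h12a were higher in labelled KO than in WT without overlap in PP, as 37.5% of genes were without overlap in 1 direction or the other. Zfp36 had 0.79 ± 0.56 there (limma adjusted p = 0.693) and Zc3h12a 1.60 ± 0.83 (limma adjusted p = 0.595).

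The difference of the genotype effect between tissues was tested as an interaction, and none of the 6 passed, beside 0.0285% of all genes. It was largest for Zc3h12a at -1.78 ± 1.18 (95% interval -4.56 to 0.995, limma adjusted p = 0.73). None of the 6 had an unadjusted p under 0.05 for it, by the same limma fit, against 8.75% of all genes. Averaged over tissues, the genotype effects of Btg1 and Zfp36l1 were 0.02 ± 0.36 and 0.04 ± 0.26 and changed sign with scaling or with single libraries left out.

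**Figure D3:**
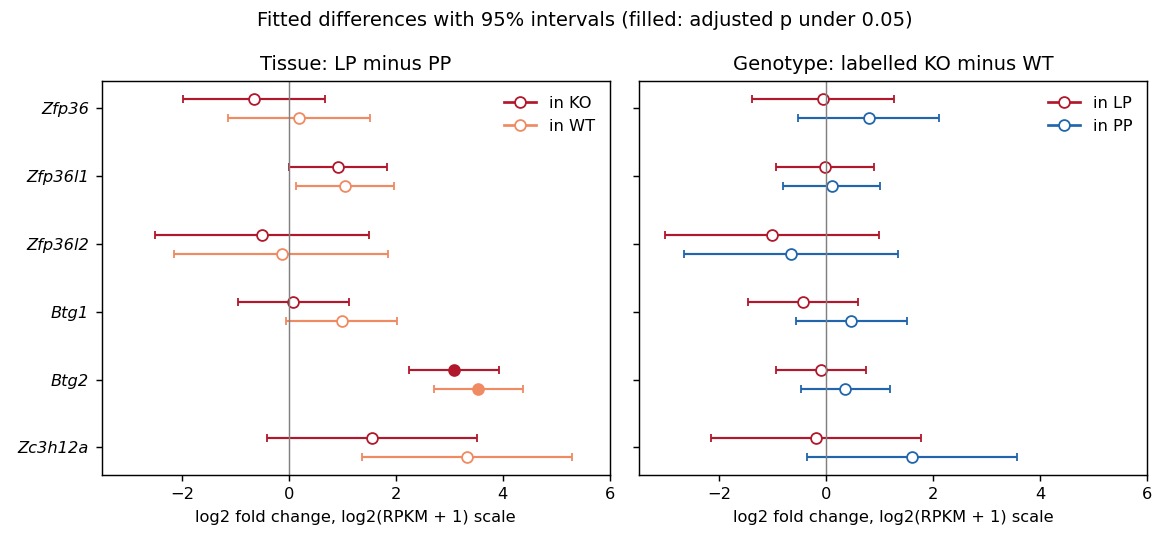
Log2 fold changes of each gene with 95% intervals (horizontal axis) for tissue, LP minus PP, on the left and genotype, labelled KO minus WT, on the right; filled points passed. Only Btg2 has filled points, at 3.09 and 3.54 for tissue, and every genotype interval includes 0.

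Relatives of the 6 genes were looked up from a list of 11. Of the 7 kept, 2 passed for the average tissue effect, both higher in LP and both from the TOB branch of the BTG family. Among all genes kept, 2.3% passed as higher. Tob2 stood at 213 and 216 RPKM in LP labelled KO and 223 and 284 in LP WT, against 45.5 and 33.9 in PP labelled KO and 44.7 and 42.4 in PP WT. Its log2 fold change was 2.46 ± 0.32 (limma adjusted p = 0.00196). Tob1 stood at 22.9 and 83.3 RPKM in LP labelled KO and 57.0 and 45.5 in LP WT, against 6.01 and 10.4 in PP labelled KO and 0.292 and 0.384 in PP WT (3.80 ± 0.88, limma adjusted p = 0.0367). Both genes separated the tissues without overlap, as 6.54% of all genes kept did in the direction of higher LP. Btg3 and N4bp1 did so too, but were kept through LP libraries alone.

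Btg3 stood at 4.22 to 19.8 RPKM in LP and 0 to 0.763 in PP and did not pass. Rc3h1 and Rc3h2, which encode the roquins, were at 3.20 to 8.14 and 0.0107 to 3.14 RPKM in LP and 0.0397 to 8.72 and 0.00584 to 7.49 in PP. Zfp36l3, Btg4, Zc3h12b and Zc3h12d stayed under 1 RPKM. The median of the 7 kept was 1.7, but Btg3 and N4bp1 passed the filter on low values through LP libraries alone, which fixed their direction. Without these 2 the median was 0.31, beside 0.76 for the 6 genes and -0.10 over all genes.

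For the machinery that these regulators recruit, no gene of the lists passed for tissue, a count to be read against the 4.33% of all genes that did, or under 1 gene per list. Of the CCR4-NOT and poly(A) nuclease list, 0 of 16 genes passed for the average tissue effect, with a median of 0.43 and 14 of 16 above 0. Of decapping and 5′ decay 0 of 16 passed (median -0.25), and of the exosome and SKI complex 0 of 16 (median -0.50). Among other proteins that bind AU-rich elements 0 of 11 passed (median 0.07), and among kinases and regulators that act on the members 0 of 14 (median -0.08, and 0.03 when rescaled without immunoglobulin and mitochondrial genes). No gene of these lists passed for genotype in LP or in PP, where 0.0285% and 0.36% of all genes did. Cnot1, the scaffold of the complex, stood at 1.115 to 15.1 RPKM in LP and 1.49 to 20.9 in PP, far below Zfp36l1.

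Transcripts known as targets were, in part, also higher in LP. Of 14 AU-rich transcripts kept, 5 passed as higher and 0 as lower (median 2.13), beside 2.3% of all genes kept that passed as higher. Of the 14, Cxcl1, Ier3 and Ptgs2 were kept through LP alone, which fixed their direction, and the median of the other 11 was 1.27. Cxcl1 and Ptgs2 are among the 5 that passed. Il22, a cytokine of epithelial defence, stood at 4047 to 5318 RPKM in LP and 460 to 865 in PP (2.94 ± 0.16, limma adjusted p = 1.47e-05). The neutrophil chemokine genes Cxcl2 and Cxcl1 stood at 123 to 550.5 and 20.8 to 64.7 RPKM in LP, and at 0.956 to 1.19 and 0.130 to 0.330 in PP (log2 fold changes of 6.85 and 5.26). Tnf, the classical target of tristetraprolin, stood at 24.9 and 30.3 RPKM in LP labelled KO, 10.02 and 24.6 in LP WT, 80.9 and 111 in PP labelled KO and 4.29 and 46.4 in PP WT, and did not pass for tissue.

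Of 13 transcripts known as Regnase-1 targets 8 were kept, and 4 passed as higher in LP and 0 as lower (median 3.19). Of all genes kept, 2.3% passed as higher. Ptgs2, which is 1 of the 4, and Tfrc were kept through LP alone, which fixed their direction. The median of the other 6 was 2.33. Nfkbiz, which encodes an inducible IkB protein, stood at 374 to 569 RPKM in LP and 17.2 to 34.4 in PP (4.01 ± 0.35, limma adjusted p = 2.04e-04). Rel, Nfkbid and Ptgs2, which is also on the AU-rich list, had 4.29, 3.78 and 5.44. For genotype, 1 of the 14 AU-rich transcripts passed as higher in PP labelled KO, beside 0.266% of all genes kept. It was Il17a, at 59.8 and 118 RPKM in PP labelled KO and 0.81 and 1.08 in PP WT (5.45, limma adjusted p = 0.0492). In LP 0 of the 14 passed, beside 0.0285% of all genes. With median-of-ratios scaling 0 of the 14 passed in PP. Of the Regnase-1 list 0 passed in either tissue. Of all genes kept, 0.36% passed in PP and 0.0285% in LP, so a count of 0 says little about the list.

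**Figure D4:**
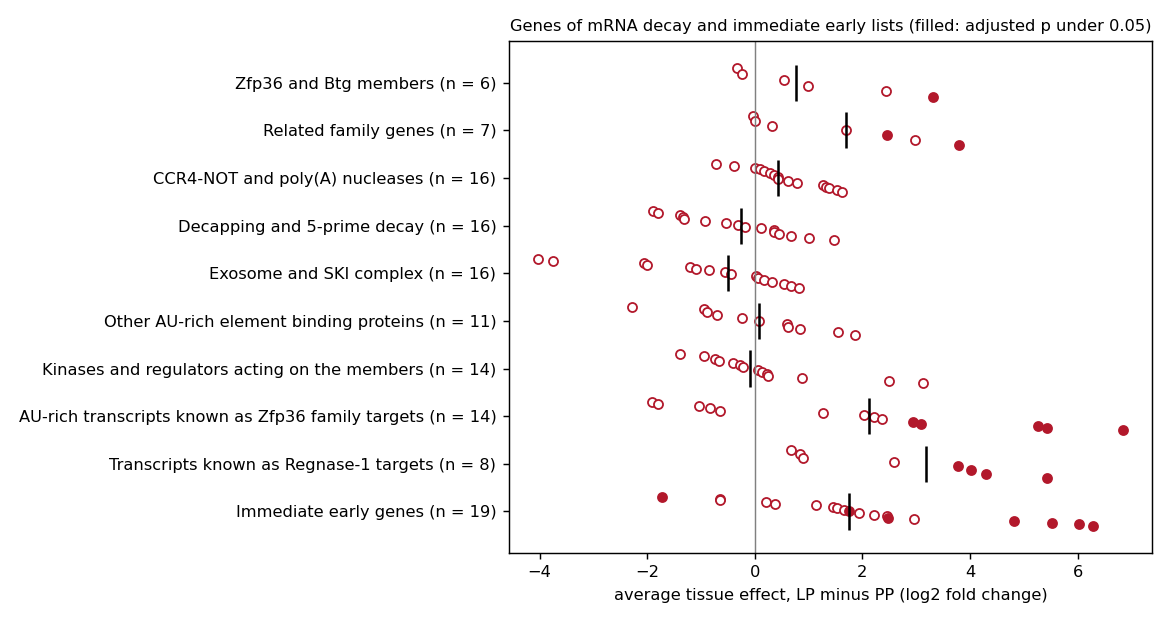
Average tissue effect, LP minus PP, as log2 fold change (horizontal axis) of each gene of 10 lists; filled points passed and black bars are list medians. Medians are 0.76 for the 6 genes, 1.7 for their relatives, 2.13 and 3.19 for the target lists, 1.75 for immediate early genes and -0.50 to 0.43 for the other lists, with some genes kept through LP alone.

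Immediate early genes, which cells switch on within minutes of stimulation, also differed by tissue. Of 19 kept, 6 passed as higher in LP and 1 as lower, with a median of 1.75, beside 2.3% and 2.03% of all genes kept. Egr2 and Ier3 were kept through LP alone, and the median of the other 17 was also 1.75. Among PP libraries Nr4a2, 1 of these 17, exceeded 1 RPKM only in PP labelled KO replicate 1 (3.08), so it too needed LP to be kept. The 6 include Nr4a2, Nr4a3, Fosb and Junb, at log2 fold changes of 6.29, 5.52, 2.47 and 1.75. Nr4a1 stood at 1317 to 1661 RPKM in LP and 22.5 to 72.6 in PP (4.82 ± 0.36, limma adjusted p = 7.18e-05), and Atf3 at 501 to 1083 in LP and 3.205 to 27.9 in PP (6.03 ± 0.43, limma adjusted p = 5.73e-05). Jun was lower in LP, at 376 to 1316 RPKM against 1876 to 2338 in PP (-1.72 ± 0.31, limma adjusted p = 0.0113). Fos and Egr1 did not pass, at 650 to 1467 and 58.6 to 117 RPKM in LP and 1244 to 2056 and 86.1 to 168 in PP. For genotype, 1 of the 19 passed, Ier5, as higher in PP labelled KO (5.28, limma adjusted p = 0.0404). Of all genes kept, 0.266% passed as higher there. With median-of-ratios scaling 0 of the 19 passed. The part of such induction in the Btg2 and Zc3h12a values was not tested.

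Some plasma cell genes also differed by tissue, and cells of the B lineage are known to express Btg and Zfp36 family genes. Of 12 markers 11 were kept, 5 above 0 and 6 below (median -0.18). Igha, Jchain, Igkc and Xbp1 passed as higher in LP, at log2 fold changes of 2.58, 2.02, 1.22 and 1.29, and Ighm as lower. Of all genes kept, 2.3% passed as higher and 2.03% as lower. Sdc1 and Mzb1 overlapped between tissues, at 20.7 to 98.5 and 53.4 to 204 RPKM in LP and 44.3 to 77.4 and 25.4 to 103 in PP. Cd79a stood at 11.0 to 25.3 RPKM in LP and 21.5 to 180 in PP, and Cd79b at 32.4 to 44.2 and 49.3 to 266. The list summed to 24480 to 38720 RPKM in LP and 7126 to 13720 in PP. Ms4a1, which mature B cells express, was under 1 RPKM in the LP libraries and reached 29.1 in PP, and Pax5 was under 1 in every library. T cell markers summed to 173 to 305 RPKM in LP and 459 to 802 in PP, with Foxp3 under 1. ILC2 markers summed to 154.5 to 240.5 RPKM in LP and 51.9 to 120 in PP, with Il1rl1, Il5 and Il13 under 1. Areg accounts for the higher LP sum (91.0 to 204 RPKM in LP, 0.373 to 0.582 in PP), while Gata3 stood at 24.2 to 43.65 in LP and 44.7 to 119 in PP. Markers of ILC1 and NK cells summed to 21.2 to 89.2 and 0.549 to 75.1, with Ncr1 and Eomes under 1. Gzma stood at 21.0 to 73.3 RPKM in LP and 0.351 to 74.9 in PP, and Tbx21 at 0.028 to 11.3 and 0.0202 to 0.0488. Klrb1c went the other way, at 0.135 to 0.178 RPKM in LP and 0.12 to 32.8 in PP. None of these 3 passed for tissue. Myeloid markers summed to at most 99.9 and 65.3 RPKM, stromal and endothelial markers to at most 64.4 and 205. The part of these cells in the values of the 6 genes was not tested.

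Over the 8 libraries, which share tissue as their main contrast, Btg2 was most like Gadd45b, a stress-response gene (Pearson r = 0.994), and Nabp1, which encodes a protein that binds single-stranded DNA (0.992), among 7140 genes of at least 5 RPKM on average. Gadd45b stood at 1420 to 2550 RPKM in LP and 41.6 to 91.4 in PP. Zfp36l1 was most like Emd and Ell2, an elongation factor gene of plasma cells (0.977 and 0.969). Zfp36l2 was most like Wbp2 and the kinase gene Tyk2 (0.959 and 0.935), Btg1 like Fcf1 and Ddx21, both of ribosome biogenesis (0.958 and 0.926), and Zfp36 like Mrpl40 and Snord14e (0.99 and 0.97). Among the 6 genes themselves r was 0.889 between Zfp36l1 and Btg2, 0.841 between Btg2 and Zc3h12a and 0.729 between Zfp36l1 and Zc3h12a. Zfp36 had -0.331 to 0.128 with each of the others.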

How the data were processed

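Smart-seq2 libraries were made from total RNA (miRNeasy Micro kit), per the labels' protocols. The submitters' processing notes name Subread, featureCounts and mm10. No source used here gives the aligner, the annotation or whether counting used strand, so reads of overlapping antisense genes cannot be told apart. The authors deposited log2 values of RPKM + 1, where 0.0001 stands for 0 and was read as 0. The log base was checked by summing RPKM times exonic length (GENCODE M21) and dividing by the sum that RPKM should give. Undoing log2 gave 1.34 to 1.51 times it, a natural log 16.7 to 19.2 and no log 0.136 to 0.161. The table gives no counts. The depth, estimated from 16 to 26 single-transcript genes per library whose values were read as 1 read each, was about 37.9 to 43.9 M reads. The lowest estimate for a member was 636 reads, in Zc3h12a. Reads after PCR are copies of cDNA from few cells, so their number does not bound the sampling error, which was not measured.

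Entrez identifiers were matched to RefSeq symbols of GRCm38.p6 (25275 of 27179). Genes reaching 1 RPKM in 2 or more of the 8 libraries were fitted on log2(RPKM + 1), with a pseudocount of 1, by limma 3.58.1 in R 4.3.3 (lmFit, eBayes with trend). Fold changes are on that scale, which understates changes of low genes. Tests were two-sided, with Benjamini-Hochberg adjustment over all genes kept and a threshold of 0.05. A model of 4 group means gave the effects within a tissue or genotype and the interaction, and an additive model the average effects. The additive model treats LP and PP libraries as separate animals, which the labels do not state. The fits were tested on simulated data. Errors of fold changes are SEs, and intervals come from the same fits.

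The genes and lists were chosen with earlier results of these data known, so no list has a test of its own. Named are all members and some of the list genes that passed or had the smallest p. For each member the 2 genes of highest correlation are named too, leaving out immunoglobulin and T cell receptor segments and predicted genes. Other genes, such as Cnot1, Btg3, the roquins, Tnf, Fos and Egr1, were named after their values were seen. Comparisons share libraries: each tissue contrast uses the same 8 as the genotype contrasts. Alternatives were other pseudocounts, filters and scalings, eBayes without trend, only the groups compared, a replicate block and leaving out each library. Some marker genes are not reported here.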

Additional observations from a re-analysis of the deposited data

How the results depend on the processing

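Of the 116 alternative values of the counts of members passing, 102 kept their side of the threshold and size. For tissue in WT the count was 0 with only the groups compared in the fit, and 0 to 1 with each library left out. For tissue in labelled KO it was 0 without a trend in eBayes and 0 with only the groups compared, and 0 to 1 with each library left out. For average tissue it was 2 after rescaling without immunoglobulin and mitochondrial genes, and 1 to 2 with each library left out. Fewer libraries or genes went into those fits in part, and otherwise the cause was not tested. The genotype and interaction counts stayed at 0 in every alternative.

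Of 696 single-gene values, 645 kept direction and call and 37 changed sign, none of them in a value that had passed. Median-of-ratios scaling put the all-gene median at -0.0712 in place of 0.155 for genotype in PP, and at 0.0123 in place of -0.29 for tissue in labelled KO. It gave genotype effects in PP of -0.477 (Zfp36l1), -0.106 (Btg1) and -0.214 (Btg2). In LP it gave 0.167 (Zfp36), 0.193 (Zfp36l1), 0.121 (Btg2) and 0.0334 (Zc3h12a). It gave averages of -0.142 (Zfp36l1), -0.161 (Btg1) and -0.0466 (Btg2), interactions of 0.67 (Zfp36l1), 0.353 (Zfp36l2) and 0.335 (Btg2), and -0.146 for tissue in WT (Zfp36). Rescaling without immunoglobulin and mitochondrial genes gave 0.027 for tissue in WT (Zfp36l2). With each library left out, signs changed within these ranges. Genotype in PP was -0.502 to 0.703 (Zfp36l1), and in LP -0.739 to 0.632 (Zfp36), -0.185 to 0.129 (Zfp36l1) and -0.57 to 0.201 (Zc3h12a). Average genotype was -0.217 to 0.264 (Zfp36l1), -0.229 to 0.237 (Btg1) and -0.0421 to 0.209 (Btg2), and the interaction of Zfp36l1 -0.731 to 0.474. Tissue in WT was -0.423 to 0.805 (Zfp36) and -0.444 to 0.167 (Zfp36l2), tissue in labelled KO -1.34 to 0.0303 (Zfp36) and -0.303 to 0.471 (Btg1), and average tissue -0.562 to 0.127 (Zfp36).

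With the replicate number as a block, Btg2 kept its calls (limma adjusted p = 0.0348 for tissue in labelled KO, 0.0218 in WT and 4.76e-04 on average), and no count of members passing changed. Over all genes the block left 74 calls in place of 211 for tissue in labelled KO, 99 in place of 224 in WT and 16 in place of 38 for genotype in PP. Same-numbered libraries correlated at -0.0214 to 0.0103 in their deviations, so the numbers were not taken as pairs. For genotype in PP, eBayes without a trend called 138 genes, and the fit of only those groups 0.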
